A study of Mus musculus with 2 samples.

Results

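Ebf1 is a helix-loop-helix transcription factor that B cell precursors need in order to commit to their lineage, and it is also expressed in fat cells. In early B cells it is known to bind and activate genes, often together with Pax5, that include those building the pre-B cell receptor and its signalling chain. The Ebf1 peaks of a fat cell line were examined here around 6 of its B cell target genes, as a contrast between lineages. These were Cd79a, Cd79b, Igll1, Vpreb1, Blk and Pax5. The peaks were picked by position alone: a peak was taken when its centre lay in 1 of 5 intervals set around these genes on the mm9 build, with Igll1 and Vpreb1 sharing an interval. This gave 6 of the 34534 peaks in the deposited list, in 4 of the 5 intervals.

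The study used chromatin immunoprecipitation followed by sequencing (ChIP-seq) in 3T3-L1 cells, an established mouse line of fibroblast origin that is turned into fat cells in culture by a hormonal mixture called MDI. Cells were fixed with 1% formaldehyde on day 10 after MDI was given. The labels describe 2 libraries from these adipocytes, 1 made with an anti-Ebf1 antibody and 1 whole cell extract with no antibody, and the only group with values used here was the Ebf1 library. There is no replicate and no B cell library, so none of the values below has an error from culture to culture. No test between groups was possible, and binding in B cells enters as background knowledge only. A peak list holds no expression values, so the cells could not be checked against adipocyte markers, and no read depth is given.

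The 6 genes fall into 3 roles. Cd79a and Cd79b encode the paired signalling chains of the B cell receptor, which carry its signal into the cell. Igll1 and Vpreb1 encode the 2 parts of the surrogate light chain, which stands in for the antibody light chain in the pre-B cell receptor. Blk encodes a Src family kinase that acts downstream of these receptors, and Pax5 encodes the transcription factor that holds B cells to their lineage.

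Promoter sequence was available for Cd79a, Igll1, Vpreb1 and Pax5, from RefSeq on GRCm38.p6. That is another build than the peaks, so no peak was placed on these sequences. The Cd79a stretch is shown because the Cd79a promoter holds a classical Ebf element of early B cells. The Igll1 stretch holds CCCNNGGG and CNCNNGGGA, letters found in 13.7% and 21.5% of all promoters. Stretches of Foxo1, which encodes a transcription factor, and Cd22, which encodes an inhibitory co-receptor, are shown because they hold the full symmetrical Ebf motif. That motif is CCCNNGGG with a T before it and an A after it. All are printed on the gene's own strand and end before its start. Capitals mark motif matches: CNCNNGGGA in Cd79a, CCCNNGGG and then CNCNNGGGA in Igll1, and the full motif in the other two.
Cd79a: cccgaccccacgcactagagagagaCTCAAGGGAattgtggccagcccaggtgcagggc
Igll1: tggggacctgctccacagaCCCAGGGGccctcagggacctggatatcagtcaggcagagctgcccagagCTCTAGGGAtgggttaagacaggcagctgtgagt
Foxo1: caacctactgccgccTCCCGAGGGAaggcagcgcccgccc
Cd22: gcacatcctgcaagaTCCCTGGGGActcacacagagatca
On GRCm38.p6 the Cd79a stretch is chr7:24897296-24897354 on the plus strand, from 201 to 143 bases before the start. The Igll1 stretch is chr16:16864133-16864235 on the minus strand, from 250 to 148 bases before the start. The Foxo1 stretch is chr3:52268230-52268269 on the plus strand and the Cd22 stretch is chr7:30879053-30879092 on the minus strand.

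The Cd79a interval, chromosome 7 from 25632001 to 25737000, held the most Ebf1 peaks, with 3 in 105 kb. The first ran from 25657401 to 25657775 and had a score of 21, the second from 25696326 to 25696725 with a score of 23, and the third from 25735401 to 25735625 with a score of 7. The score is a whole number the authors deposited for each peak, whose meaning is not given in the sources used here, and over the whole list it had a median of 13 and a highest value of 597. The second peak was thus the strongest of the 6 peaks and scored above 70.9% of the list, while the third scored above only 10.6%. The second also lay nearest the middle of the interval, 12.0 kb away, against 26.9 kb for the first and 51.0 kb for the third. The 3 peaks stood 38.9 and 39.0 kb apart from centre to centre. The third was 1.49 kb inside the upper border, so that a slightly narrower interval would have left it out.

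The Cd79b interval, chromosome 11 from 106122001 to 106227000, held no Ebf1 peak. The exact Poisson 95% interval of a count of 0 reaches 3.69 peaks, for counting error only. The closest peak below it, from 106102376 to 106102725, had a score of 15 and its centre lay 19.5 kb outside the interval. The closest above it, from 106244176 to 106244375, had a score of 4 and lay 17.3 kb outside. For the pair of signalling chains the counts were thus 3 at Cd79a and 0 at Cd79b, with overlapping counting intervals (0.619 to 8.77 and 0 to 3.69). They depended on the borders: with 50 kb more on each side both intervals held 3 peaks, and in the central 50% the counts were 1 and 0.

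The shared interval of Igll1 and Vpreb1, chromosome 16 from 16810001 to 16920000, held 1 Ebf1 peak. It ran from 16849301 to 16849500, which at 200 bp is the narrowest width in the list, and its score of 6 was the lowest of the 6 peaks and above 4.83% of the list. Its centre lay 15.6 kb below the middle of the interval. The next peak on either side was 300 kb below and 89.3 kb above.

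Blk had 1 Ebf1 peak in its interval, chromosome 14 from 63941001 to 64086000. It ran from 63961226 to 63961650 with a score of 22, above 69.6% of the list, and at 425 bp it was the widest of the 6. It stood 52.1 kb below the middle of the interval and 127 and 143 kb from its neighbours.

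The Pax5 interval was the longest, 280 kb on chromosome 4 from 44494001 to 44774000, and also held 1 Ebf1 peak. That peak ran from 44769276 to 44769600 with a score of 14, close to the median of the list. It lay at the upper edge, 4.56 kb inside the border and 135 kb from the middle, and the next peak above, with a score of 10, stood 21.5 kb outside the interval. The part of the Pax5 interval below its peak, 98.3% of it, formed an unbroken stretch with no peak.

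**Figure D1:**
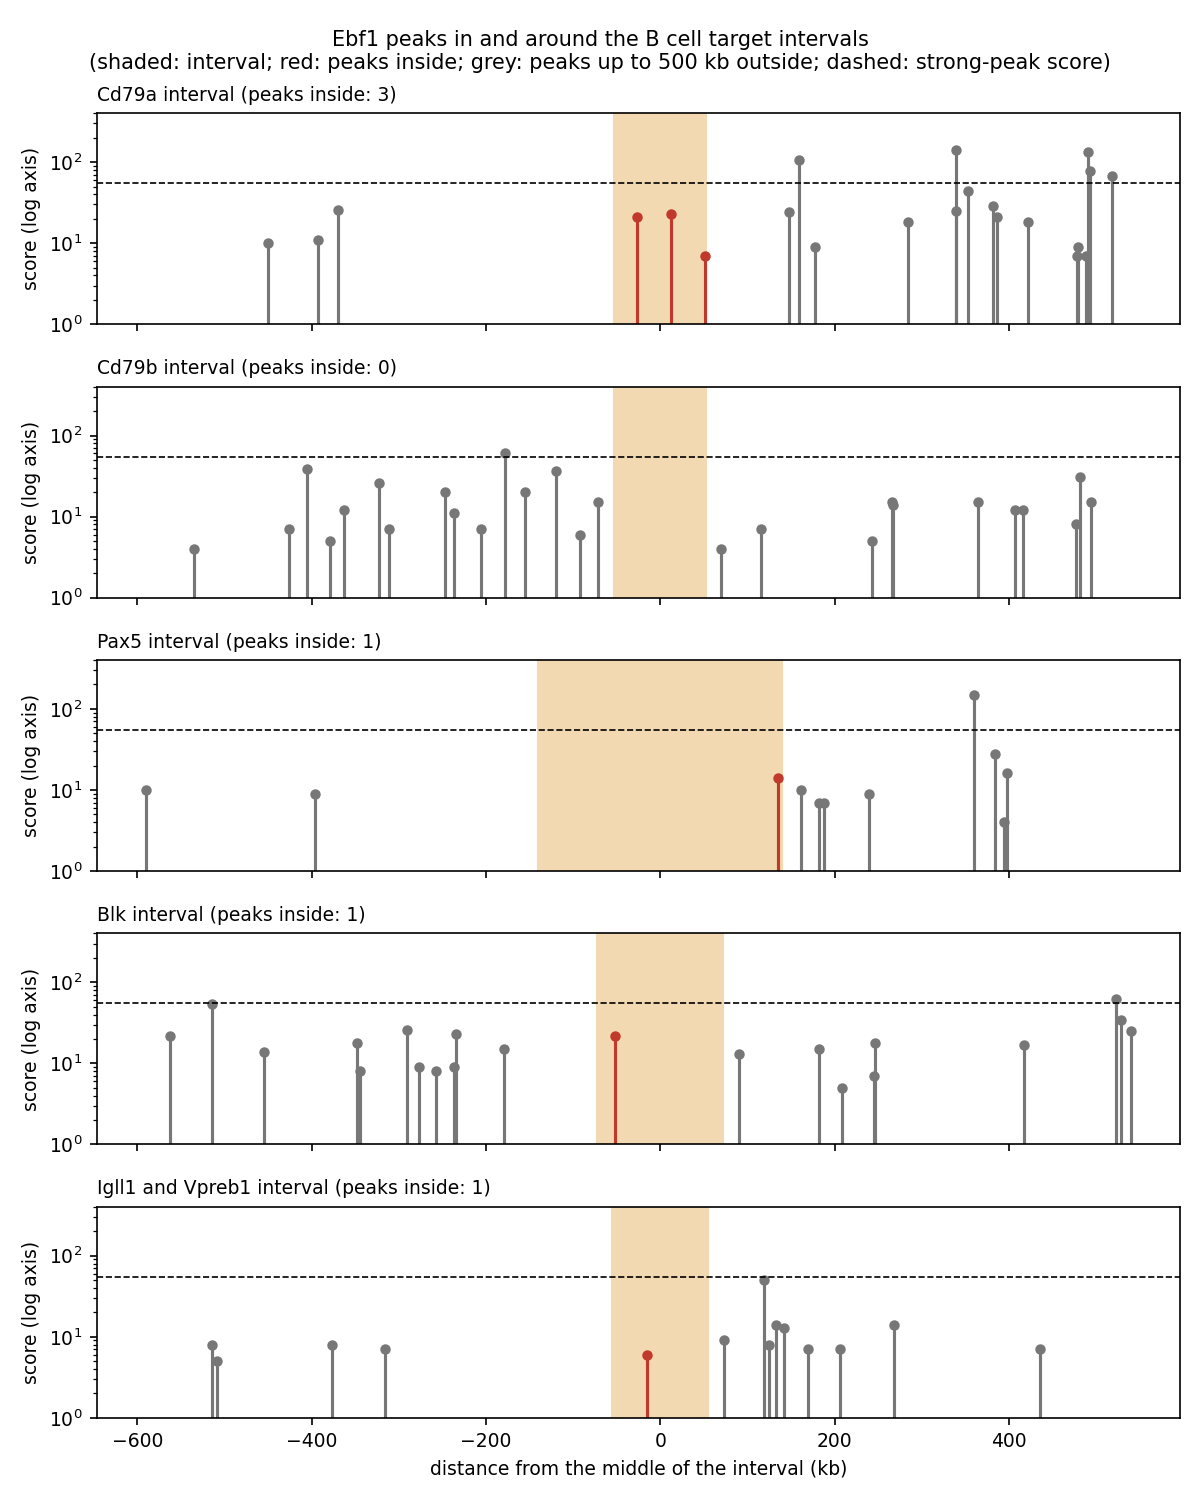
Each panel plots the deposited score (log axis) of every Ebf1 peak against its distance in kb from the middle of 1 interval, up to 500 kb outside it; the interval is shaded, its peaks are red, the others grey, and the dashed line is a score of 55. The Cd79a interval shows 3 red peaks, the Cd79b interval none and the others 1 each, and every red peak lies below the dashed line.

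None of the 6 peaks was strong. Strong is used here for a score of 55 or more, which 10.2% of all peaks reached. Of the 6, 0 did, and with so few peaks the exact Clopper-Pearson 95% interval for that share reaches 45.9%. That interval takes the peaks as independent, although 3 of the 6 lay in the Cd79a interval. None reached the top 25% of the list either, a score of 26 or more, where 25.7% of all peaks lay. The 6 scores ran from 6 to 23 with a median of 17.5, above the list's median of 13, and 4 of the 6 were at or above that median. The peaks at Cd79a and Blk supplied the 3 highest.

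The scores of the 6 peaks were ordinary for their widths. Score and width rise together in this list, so each peak was set beside all peaks of its own width. The second Cd79a peak, 400 bp wide, scored 23 where the 1113 peaks of that width had a median of 22. The Blk peak scored 22 against a median of 26 at its width, and the Igll1 and Vpreb1 peak 6 against 7. The Pax5 peak scored 14 against 13. In all, 3 of the 6 were above the median of their width and 3 below, and all 6 lay within its quartiles, or on the lower one.

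**Figure D2:**
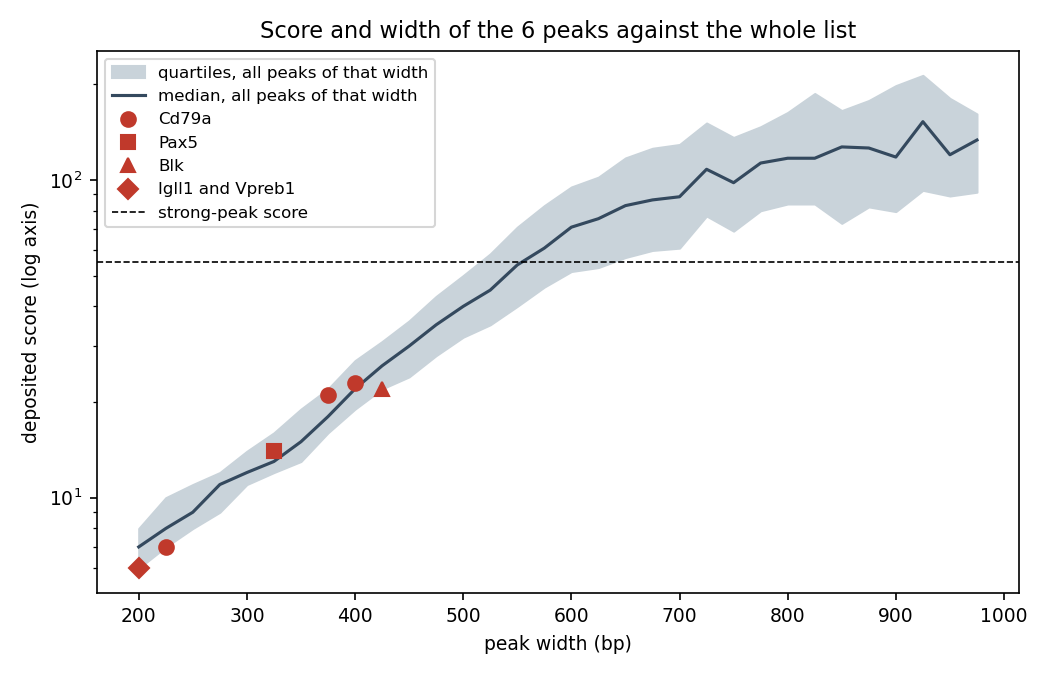
Deposited score (log axis) against peak width in bp for the 6 peaks in the B cell target intervals (red symbols, by interval). The line and band give the median and quartiles of all peaks of each width. All 6 symbols lie in or on the edge of the band, and all lie below the dashed line at a score of 55.

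The second whole-number column of the list, which is also unexplained, ran from 0 to 15 over all peaks with a median of 1. Over the 6 peaks it ran from 0 to 3, also with a median of 1. It was 3 at the second Cd79a peak, 2 at Pax5, 1 at the first Cd79a peak and at the Igll1 and Vpreb1 peak, and 0 at the third Cd79a peak and at Blk.

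How few or many peaks these are depends on how the list fills windows of that length elsewhere, so chromosomes 1 to 19 and X were tiled with windows as wide as each interval. Windows of 105 kb held 1 or more peaks in 51.0% of cases and a strong one in 10.9%. An empty window such as that of Cd79b was therefore nearly as common as a filled one. The 3 peaks of Cd79a exceeded the count in 80.7% of such windows, and 12.6% held more. On chromosome 7 alone, 84.6% of windows held fewer.

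The other intervals lay in the lower or middle part of their distributions. Of 280 kb windows, 73.6% held a peak and 23.1% a strong one, with a median of 2 peaks; 56.1% held more than the single peak of Pax5, and 26.4% held none. At the width of the Blk interval, 145 kb, 58.4% of windows held a peak, 14.0% a strong one, and 38.2% more than 1. On chromosome 14, which has few peaks, 26.2% of windows held more than the Blk interval. At 110 kb, the width of the Igll1 and Vpreb1 interval, 52.1% held a peak, 11.3% a strong one, and 31.5% more than 1. Windows beside each other are not independent, so these shares describe the list and are not p-values.

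**Figure D3:**
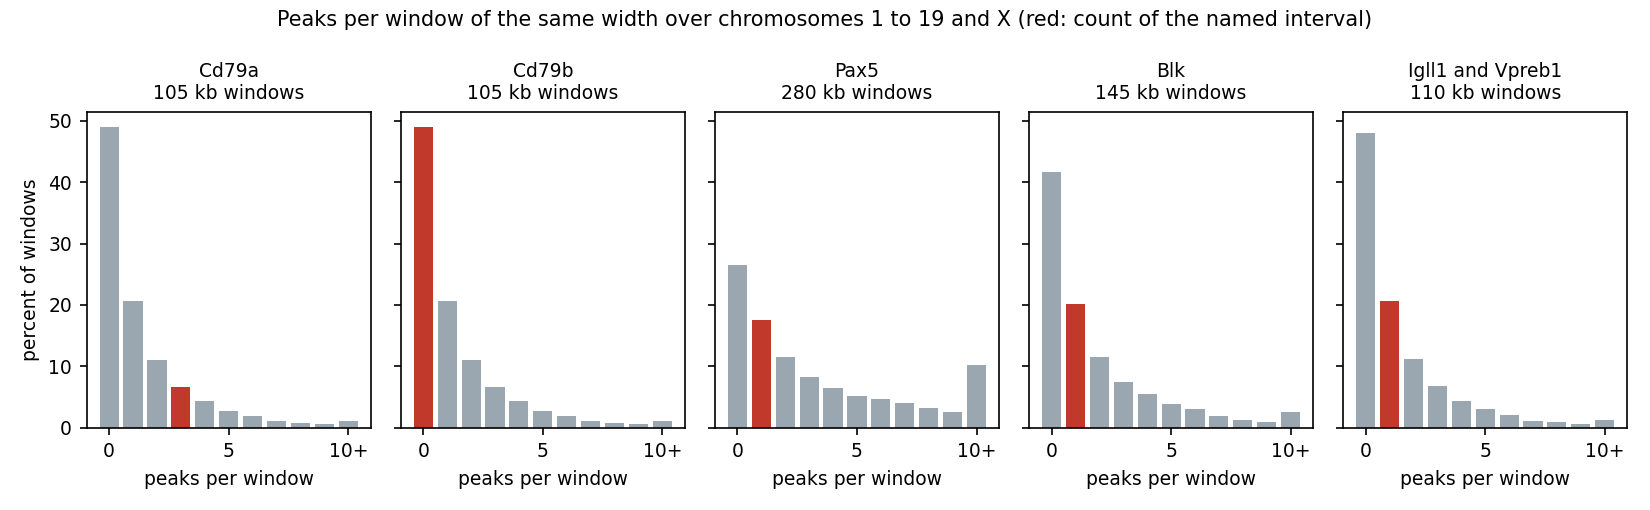
Each panel gives the percent of windows over chromosomes 1 to 19 and X that held a given number of Ebf1 peaks (10+ is 10 or more), at the width of 1 interval, with the bar of the interval's own count in red. The red bar is the tallest, at no peak, for Cd79b, and stands at 1 peak for Pax5, Blk and the shared Igll1 and Vpreb1 interval and at 3 for Cd79a.

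Over the 5 intervals together, 6 Ebf1 peaks in 745 kb came to 8.05 per Mb, with an exact Poisson 95% interval of 2.96 to 17.5 for counting error only. Chromosomes 1 to 19 and X as a whole held 13.3 peaks per Mb, which lies within that interval and would give 9.89 peaks over this length. The rate over these intervals thus did not differ from the genome-wide rate beyond counting error. Since neighbouring peaks cluster, that error is understated. Interval by interval, the rate was 28.6 per Mb at Cd79a, 9.09 at Igll1 and Vpreb1, 6.90 at Blk, 3.57 at Pax5 and 0 at Cd79b. Their chromosomes held 10.3, 16.4, 8.21, 12.3 and 16.8 per Mb in the same order.

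Ebf motifs were then counted in the promoters, from 250 bases before to 50 after the start, on both strands. The full motif was in 0.904% of 32851 promoters and in none of the 4 member promoters with sequence. Its core CCCNNGGG, which every full match contains, was in 13.7% of promoters and in 1 of the 4, that of Igll1, at 231 bases before the start. CNCNNGGGA, chosen after the Cd79a promoter was read and also contained in every full match, was in 21.5% of promoters. Among the 4 it was in Cd79a, at 176 bases before the start, and in Igll1, at 181. Vpreb1 and Pax5 held none of the 3 motifs in this window. A match describes the letters only.

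Of 30 B cell and adipocyte genes listed for comparison, 23 had promoter sequence. Among the 5 receptor genes with sequence, which include Cd79a, Igll1 and Vpreb1, CNCNNGGGA was in 3, against 21.5% of all promoters. Cd79a is 1 of these 3 by construction, since the motif was chosen from its promoter, and the others are Igll1 and Vpreb2, a close relative of Vpreb1. The core was in 1 of the 5, Igll1. Among the 6 B cell transcription factor genes, which include Pax5, Foxo1 held all 3 motifs and Ikzf1 the core alone. Of the 2 B cell surface genes with sequence, Cd22 held all 3 motifs and Cr2 none. Of the 2 kinase genes with sequence, Syk held CNCNNGGGA and Btk no motif. Of the 8 adipocyte genes with sequence, none held the full motif. The core was in 2 of them, Cebpb and Plin1, against 13.7% of all promoters. CNCNNGGGA was in 5, against 21.5% of all promoters: Pparg, the master regulator of fat cell formation, Cebpb, Plin1, Lep and Lipe. The adipocyte genes had more promoters than genes, 11 for 8, as had the B cell transcription factor genes, 8 for 6, and the kinase genes, 3 for 2. A gene was counted when any of its promoters held the motif, whereas the shares are over single promoters. The groups are too small to rank.

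By order in the RefSeq gene table of GRCm38.p6, Cd79a lies between Rps19 and Arhgef1, and Cd79b between Gh, the growth hormone gene, and Scn4a, a muscle sodium channel gene. Igll1 and Vpreb1 are next to each other, followed by Top3b. Blk is followed by Fam167a. Pax5 is preceded by Melk and Gm24376 and followed by Mir5120 and Gm12462. Which gene each of the 6 peaks lies in or closest to was not analysed here, because no annotation of mm9 was used, and a peak in an interval may belong to a neighbouring gene.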

How the data were processed

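One peak list of the Ebf1 ChIP library was used. Per the submitters' processing notes, SAMtools was used and positions are on mm9. How reads were aligned, how peaks were called, at what threshold, and whether the whole cell extract was used in calling is not given in the sources used here. Per the labels, ligation products of 275 to 700 bp were amplified over 18 PCR cycles. The deposited file holds 2 whole-number columns of unstated meaning, each treated as a score and not as a read count. Positions were read as 1-based, since all 34534 starts lay 1 past a multiple of 25.

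The intervals were taken as given and not checked against an mm9 annotation. The genes, lists and intervals were chosen with earlier results of these data known. The text names the 6 genes, every peak in the intervals, nearest peaks outside, and listed promoter genes. Windows ran from the first to the last peak of each chromosome. No test between groups was made, and the planned count at adipocyte genes was not made without an mm9 annotation. The window and motif counts were tested on simulated data. Scripts ran in Python 3.11.15 with pandas 2.3.3 and numpy 2.4.6, intervals came from scipy 1.17.1 and plots from matplotlib 3.10.9. Alternatives were score thresholds, membership by overlap, narrower and wider intervals, other tilings and other motifs. CNCNNGGGA, the flanks of 500 kb and the peak-free stretches were added after the data were seen.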

Additional observations from a re-analysis of the deposited data

How the results depend on the processing

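Of 61 alternative values, 35 counted as unmoved (a count within 1.5 times, a share within its exact 95% interval), 26 moved and none reversed. A count or share here has no sign, so none could reverse. Some of the unmoved values could not have moved either, such as the count of the empty Cd79b interval under score thresholds. None of the 6 peaks reached the top 25% of the list. By construction none then reached the top 10% or the top 5% (a score of 84 or more). Membership by an overlap of 1 base changed no count. With peaks at or above the median score only, the Igll1 and Vpreb1 interval fell from 1 peak to 0, and in the top 10% every interval held 0. In the central 50% of each interval Cd79a kept 1 peak and the Igll1 and Vpreb1 interval its 1, while Pax5, Blk and Cd79b had 0. With 50 kb more on each side, Cd79a still had 3 peaks, Cd79b also had 3, Pax5 4, Blk 2 and Igll1 and Vpreb1 2. The direction of these changes follows from the construction of each setting, but their size does not. The share of equal windows with fewer peaks than the locus, over the chromosome of the locus alone, was 84.6% for Cd79a, 30.0% for Pax5, 52.2% for Blk and 41.4% for Igll1 and Vpreb1, against 80.7%, 26.4%, 41.6% and 47.9%. At or above the median score it was 83.0%, 47.9%, 61.0% and 0% in the same order, and after leaving out megabases that held 50 or more peaks it was 81.5% for Cd79a. For Cd79b it is 0 by construction. The same holds for Igll1 and Vpreb1 at or above the median score, where the interval held 0 peaks. At that threshold, 66.1% of windows of its width held no peak either. The share of promoters with the motif was 0.904% for the full form, 0.779% before the start only, 13.7% for the core and 21.5% for CNCNNGGGA, with 0, 0, 1 and 2 of the member promoters. Without a known depth, an interval with no peak does not show an absence of binding, and no error rate can be given for a peak as weak as that of Igll1 and Vpreb1. There was only 1 library, so leaving out a replicate could not be tried. No paired analysis was possible because only 1 group had values.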

Other observations

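The surroundings of the intervals were looked at after the values had been seen. The 500 kb on either side of the 5 intervals held 88 Ebf1 peaks over 5.0 Mb, or 17.6 per Mb, and 8 of them, 9.09%, were strong. Chromosomes 1 to 19 and X as a whole held 13.3 peaks per Mb, and 10.2% of the list was strong. Around Cd79a there were 19, of which 16 lay above the interval and 3 below, and 5 were strong. The strongest of these, on chromosome 7 from 26023376 to 26024075, scored 143 and lay 287 kb above the interval. Around Cd79b, the interval with no peak, there were 26, the most of the 5, with a highest score of 60 from 105995826 to 105996775 on chromosome 11. Around Pax5 there were 10, and the strongest, with a score of 148 and the list's greatest width of 975 bp, lay 219 kb above the interval on chromosome 4 from 44992976 to 44993950. The flanks of Blk held 20 peaks with a highest score of 62, and those of Igll1 and Vpreb1 held 13 with a highest score of 50.

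The longest stretch without an Ebf1 peak that touched an interval was at Pax5, 531 kb on chromosome 4 from 44237901 to 44769275. It covered 98.3% of the Pax5 interval, and 2.44% of the 34136 gaps between neighbouring peaks were as long or longer. Long gaps hold much of the genome, however: gaps of at least this length made up 31.2% of all peak-free bases. The Igll1 and Vpreb1 interval bordered a gap of 300 kb and the Cd79a interval one of 342 kb, which reached over 35.7% and 24.2% of them. The gap that spans Cd79b was 141 kb, and the one over 85.8% of the Blk interval was 142 kb. Gaps of at least those lengths held 65.5% and 65.3% of peak-free bases. Sequence missing from the assembly, or that reads cannot be mapped to, was counted as part of these stretches.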
